A study of Mus musculus with 9 samples.

Results

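The 8 genes described here make or support the making of prostaglandins and thromboxane, and they were chosen by symbol: Pla2g4a, Ptgs1, Ptgs2, Ptges, Ptges2, Ptges3, Hpgds and Tbxas1. All 8 had a row among the 20467 genes of the deposited table. The question for each was whether its mRNA was recovered with antibodies to Roquin, an RNA-binding protein that directs mRNAs to decay through stem-loops called constitutive decay elements (CDEs).

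Prostaglandins are lipid signals of inflammation, fever and pain. A phospholipase frees arachidonic acid from membranes, a cyclooxygenase turns it into prostaglandin H2, and terminal synthases turn that into prostaglandin E2, prostaglandin D2 or thromboxane. In macrophages, LPS induces the cyclooxygenase COX2, the target of many anti-inflammatory drugs, and its mRNA is known for rapid turnover through AU-rich sequences.

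All 9 libraries came from RAW264.7 cells, a mouse macrophage-like line, treated with LPS at 100 ng/ml for 2 h. There were 3 Roquin IP libraries (rabbit polyclonal antibodies on protein A/G beads), 3 bead controls (control IP: the same beads with no antibody) and 3 lysates (input: RNA taken before IP). Every group had LPS, so no library shows the resting state, and the beads-only control cannot tell RNA bound to Roquin from RNA bound by anything else the antibodies hold. Library totals ran from 1799390 to 12975767 reads, lowest in the lysate. All 10 macrophage markers had reads (summed level 1097 to 2283 CPM per library), while the 4 mast cell markers had none in any library.

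Levels are given in CPM, read counts scaled to the library total after correction with TMM factors. A difference was called at an edgeR adjusted p under 0.05, taken over the 9567 genes that passed the count filter. Of the 8 genes, 7 were tested and Tbxas1 was not, with 14 reads in all.

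In the main edgeR fit, which did not pair libraries, Ptgs2 was the only synthesis gene called in any of the 3 comparisons. It was 2.37-fold higher in Roquin IP than with beads alone, but its level in Roquin IP was close to that of the lysate. Calls in this direction were made for 3.76% of the genes tested. That of Ptgs2 was lost on leaving out Roquin IP 2 or any bead control. The strongest enrichment in the wider pathway was downstream of synthesis: Ptger4, which encodes the prostaglandin E2 receptor EP4, was 41.7-fold higher, and Ptgr2, a prostaglandin reductase gene, was 4.62-fold higher. The phospholipase and the terminal synthases were not called in that fit. With same-numbered libraries paired, Pla2g4a, Ptges3 and Hpgds were called lower in Roquin IP than in the lysate, as were 8.04% of all genes.

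Since Roquin is known for binding stem-loops in 3' untranslated regions (3' UTRs), the sequences that resemble its element are shown first. The authors' deposited table gave the class "no CDE" to all 8 genes, as to 20279 of its genes, while 188 genes had a predicted element. The 3' UTRs of the GENCODE M21 annotation (GRCm38) were searched on the RNA strand for TTCNNNGAA, the form of a stem with a loop of 3 bases. In the decay element of Tnf the loop is a pyrimidine, a purine and a pyrimidine. Capitals mark the match in the sequences below, which are DNA letters of the RNA strand, 5′ to 3′.

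The Tnf site is given for comparison and the other 6 are every match in the 8 genes, written with the build GRCm38.
Tnf, chr17:35199580-35199604, minus strand: gacatgttTTCTGTGAAaacggagc
Tbxas1, chr6:38952198-38952222, plus strand: gaaataagTTCTGTGAAtaatgaca
Ptgs2, chr1:150106468-150106492, plus strand: attgtcttTTCTTAGAAgtagtgaa
Ptgs2, chr1:150107585-150107609, plus strand: tggataaaTTCTAAGAAaactagtg
Ptgs1, chr2:36251870-36251894, plus strand: caattttcTTCCTAGAAtttggagg
Ptgs1, chr2:36252013-36252037, plus strand: ttttcctgTTCAGTGAAatggacac
Ptges, chr2:30890801-30890825, minus strand: aacccgggTTCTCTGAAgagcaacc

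Tnf, which the deposited table classed as 3'UTR (conserved), has a stem of 7 pairs at this site, with G-U pairs allowed and the 3 pairs of the pattern included. Neither Ptgs2 match has the loop of the Tnf element, and their stems reach 4 and 3 pairs. The Tbxas1 match has the Tnf loop, but its stem reaches 4 pairs, and it lies in the 3' UTR of a short annotated transcript rather than in that of the longest. Ptges2, Ptges3, Pla2g4a and Hpgds hold no match. A match of the looser pattern is common: 34.7% of 19742 genes with a 3' UTR hold it, and 57.4% of those whose 3' UTR is within 25% of the length of that of Ptgs2. The form with the loop of Tnf is held by 5.59%.

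What set the Ptgs2 3' UTR apart in this search was ATTTA, the core of AU-rich elements, which are bound by other decay factors. Its 2445 bases hold 14 of them, counting overlaps, against 0 to 4 in the other 7 genes. Only 3.09% of all genes, and 1.61% of those of like 3' UTR length, hold as many. Of the tested genes with at least 14 ATTTA, 12.9% (36 of 279) were called higher in Roquin IP over bead controls, against 3.53% of those with fewer. The cutoff was the count in Ptgs2, which is itself among the 36. The first set has longer 3' UTRs (median 5646 against 1150 bases), and the part of length in this was not tested. Genes with a match of TTCNNNGAA but no loop like that of Tnf, as Ptgs2 is, were called higher in 4.55% of cases, those with that loop in 10.9% and those with no match in 2.77%. These sets too differ in median 3' UTR length (2196.5, 2658 and 776 bases). By deposited class, 3.49% of the tested genes with "no CDE" (329 of 9437) were called higher, and 23.8% of those with a predicted element (31 of 130). Their median 3' UTR lengths were 1192 and 1850 bases.

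The first enzyme of the pathway, the cytosolic phospholipase A2 encoded by Pla2g4a, frees arachidonic acid. Its gene lies on chromosome 1 at 149829618 to 149961290 (GRCm38.p6), 138.7 kb from Ptgs2 at 150100031 to 150108234. The levels of Pla2g4a were 57.0, 69.9 and 66.9 CPM in Roquin IP, 118.5, 50.6 and 64.5 with beads alone and 116.9, 144.7 and 106.1 in the lysate. Roquin IP lay below the lysate in all libraries, as for 14.3% of the genes tested, and overlapped the bead controls. Over the bead controls the log2 fold change was -0.26 (95% interval -0.94 to 0.42, edgeR adjusted p = 0.832), and over lysate it was -0.92 (SE 0.32, adjusted p = 0.0967). With same-numbered libraries paired, the difference from the lysate passed (-0.90, edgeR adjusted p = 0.0410). It also passed in DESeq2 (-0.93, adjusted p = 0.0498), with the 6 libraries compared (-0.90, adjusted p = 0.0401) and without bead control 1 (-0.92, adjusted p = 0.0275). With library size alone it passed at -1.68 (edgeR adjusted p = 0.00264), as did Ptges3 (-1.58, adjusted p = 0.00571) and Hpgds (-2.13, adjusted p = 0.00750). That scale moves the median of all genes over lysate from -0.01 to -0.76. Relative to the median Pla2g4a stood at -0.93 there and at -0.91 with TMM factors.

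Ptgs2 encodes the inducible cyclooxygenase COX2. It had 808, 4883 and 3740 reads in Roquin IP, 544, 1128 and 1963 with beads alone and 1011, 1091 and 580 in the lysate. Scaled, these were 338.9, 617.3 and 361.9 CPM in Roquin IP, 165.7, 221.0 and 168.7 with beads alone and 411.7, 431.4 and 287.6 in the lysate. All Roquin IP libraries lay above all bead controls, as they did for 10.7% of the genes tested, and they overlapped the lysate. All bead controls lay below the lysate, as for 10.8% of the genes tested, while 12.2% lay above it in all libraries.

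Ptgs2 was higher in Roquin IP than with beads alone by 1.25 on the log2 scale (SE 0.31, 95% interval 0.59 to 1.90, edgeR adjusted p = 0.0315). Calls in this direction were made for 3.76% of the genes tested (360 of 9567), and Ptgs2 was the 1 of the 7 tested synthesis genes among them. By fold change it ranked 467 of 9567. The difference was 1.03, 1.48 and 1.10 between the libraries numbered 1, 2 and 3, so it was positive in 3 of 3 pairs. The authors' deposited table gave Ptgs2 a linear ratio of 2.41 and a p of 0.0663.

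The call rested on every control library and on Roquin IP 2. Its adjusted p rose to 0.222 without Roquin IP 2, 0.0940 without bead control 1, 0.0660 without bead control 2 and 0.122 without bead control 3, with log2 fold changes of 0.92 to 1.39. With library size alone as the scale it did not pass either (0.38, adjusted p = 0.316). That scale moves the median of all genes from -0.12 to -0.96, and relative to the median Ptgs2 stood at 1.34 there and at 1.37 with TMM factors.

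**Figure D1:**
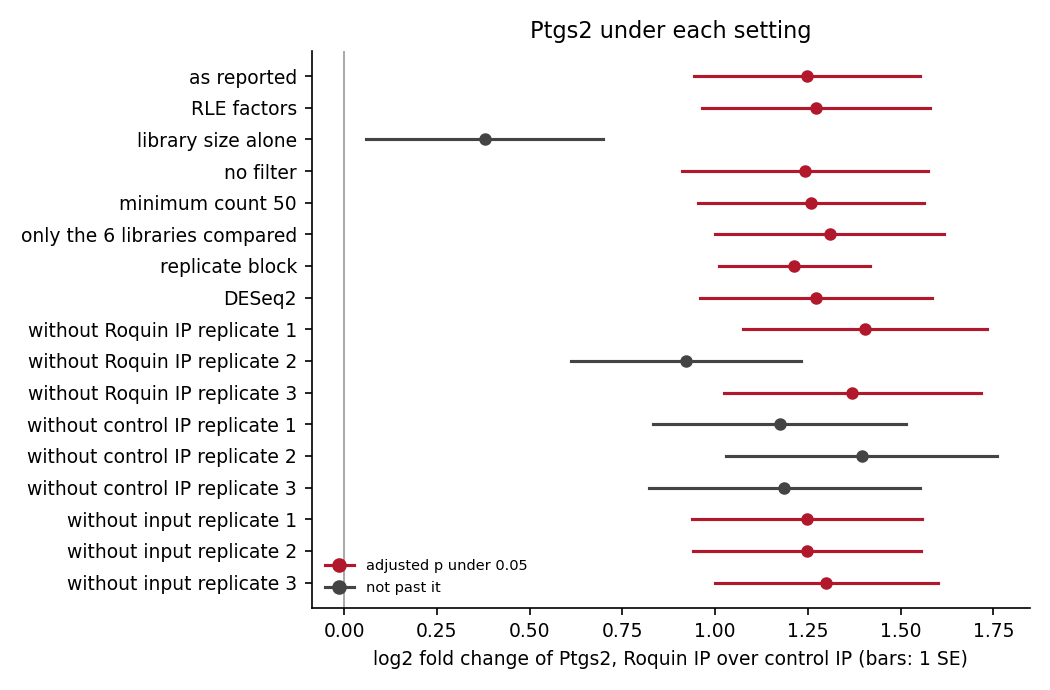
Log2 fold change of Ptgs2 in Roquin IP over bead controls (horizontal axis) under each setting (rows), with bars of 1 SE. The estimates lie between 0.92 and 1.40 except with library size alone (0.38), and red marks an adjusted p under 0.05.

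Against the lysate Ptgs2 did not pass. Its log2 fold change in Roquin IP over lysate was 0.22 (95% interval -0.42 to 0.87, edgeR adjusted p = 0.714), where 5.45% of genes were called higher and 2.79% lower (8.24% in all). Beads alone held less Ptgs2 than the lysate, by -1.03 (SE 0.30, adjusted p = 0.0903), and this passed with same-numbered libraries paired (-1.02, adjusted p = 0.00929) and in DESeq2 (-1.06, adjusted p = 0.0151). In the fits that called it, 5.78% of all genes (paired) and 4.19% (DESeq2) were lower, against 0.303% lower and 1.12% in all without the pairing. The comparisons share libraries, so these values are not independent of each other.

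**Figure D2:**
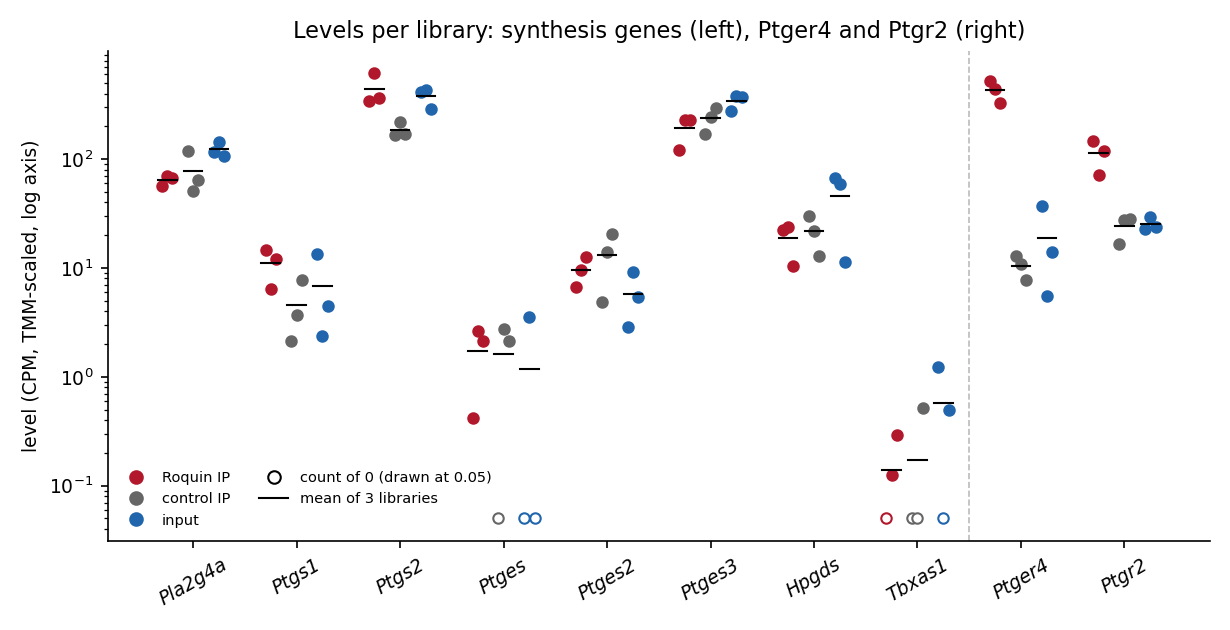
Level of each gene (CPM, log axis) in every library, with the mean of 3 libraries as a line and counts of 0 drawn open at 0.05. Ptgs2 in Roquin IP lies above the bead controls and overlaps the lysate, while Ptger4 and Ptgr2 lie above both.

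The share of Ptgs2 within the pathway needs no scaling between libraries. Per read of the other 7 genes together, Ptgs2 had 1.52, 1.82 and 1.09 reads in Roquin IP, 0.509, 0.652 and 0.421 with beads alone and 0.862, 0.720 and 0.580 in the lysate. Ptgs2 outnumbered the rest in each Roquin IP library and in no other, and the 3 groups overlap only between the bead controls and the lysate. The mean log2 ratio in Roquin IP was 1.48 above the bead controls and 1.02 above the lysate. The ratio moves with the other 7 genes as well as with Ptgs2, whose own edgeR log2 fold change over lysate was 0.22. Ptges3, the most read of the other 7, was at -0.83 there, Pla2g4a at -0.92 and Hpgds at -1.31. Ptgs1, Ptges and Ptges2, with fewer reads, were at 0.69, 0.59 and 0.75. An exact permutation test (two-sided, n = 3 per group) gave p = 0.1 for each, the smallest p it can give. Beads alone differed from the lysate by -0.45 (exact p = 0.2).

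**Figure D3:**
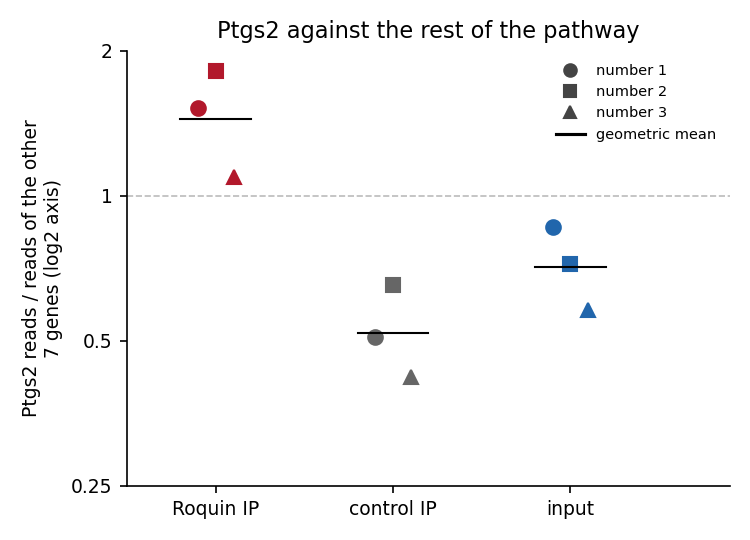
Reads of Ptgs2 divided by the summed reads of the other 7 genes in each library (log2 axis), with the geometric mean as a line and the library number as the symbol. The 3 Roquin IP libraries lie between 1.09 and 1.82, and the other 6 between 0.421 and 0.862.

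Ptgs1 encodes the constitutive cyclooxygenase COX1. It was measured at 14.7, 6.45 and 12.1 CPM in Roquin IP, 2.13, 3.72 and 7.82 with beads alone and 13.4, 2.37 and 4.46 in the lysate. The groups overlap. Its log2 fold change over bead controls was 1.20, close to that of Ptgs2, but with an interval from -0.17 to 2.57 (SE 0.64, edgeR adjusted p = 0.604). At 7 to 125 reads in the IP libraries its precision does not show whether it differed from 0 or from Ptgs2.

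Ptges, Ptges2 and Ptges3 encode the prostaglandin E synthases: the inducible microsomal enzyme, a second membrane-associated enzyme, and the cytosolic protein p23, which is also a co-chaperone of Hsp90. Ptges had 44 reads in Roquin IP, 39 with beads alone and 9 in the lysate. None of the libraries numbered 1 had more than 1 read of it, and a count of 0 allows up to 0.914 CPM in bead control 1, 1.22 in lysate 1 and 1.49 in lysate 3. Its fold changes could not be told from 0 (log2 fold change over bead controls 0.12, 95% interval -2.20 to 2.44).

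Ptges2 was at 9.63 ± 2.93 CPM in Roquin IP, 13.1 ± 7.76 with beads alone and 5.80 ± 3.14 in the lysate (SD, n = 3). It did not pass in the edgeR test over bead controls (-0.44, adjusted p = 0.825) or over lysate (0.75, adjusted p = 0.476). Ptges3 was the most read of the E synthases, at 121.6, 226.9 and 226.7 CPM in Roquin IP, 169.6, 245.9 and 292.8 with beads alone and 275.7, 380.4 and 368.0 in the lysate. It was lower in Roquin IP than with beads alone in 3 of 3 pairs and did not pass (-0.30, edgeR adjusted p = 0.809). Below the lysate it stood in all libraries, as did 14.3% of the genes tested. The difference from the lysate was -0.83 (SE 0.31, edgeR adjusted p = 0.128), and it passed with same-numbered libraries paired (-0.87, adjusted p = 0.00697). The annotation holds the pseudogene Ptges3-ps, so some Ptges3 reads may be shared.

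Hpgds, the gene of hematopoietic prostaglandin D synthase, was at 22.2, 23.6 and 10.4 CPM in Roquin IP, 30.2, 21.8 and 13.0 with beads alone and 67.6, 58.9 and 11.4 in the lysate. The library numbered 3 was the lowest in each group. Over the lysate its log2 fold change was -1.31 (SE 0.54, edgeR adjusted p = 0.164). It passed with same-numbered libraries paired (-1.12, adjusted p = 0.0285), without lysate 3 (-1.75, adjusted p = 0.0365) and with no count filter (-1.30, adjusted p = 0.0167). Over the bead controls it was at -0.20 (adjusted p = 0.928). Tbxas1, the gene of thromboxane A synthase, had 4 reads in Roquin IP, 6 with beads alone and 4 in the lysate, too few to compare.

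With same-numbered libraries paired, then, 3 of the 7 tested synthesis genes were called lower in Roquin IP than in the lysate, against 8.04% of all genes in that fit (769 of 9567). Without the pairing edgeR called 0 of the 7 lower. At an unadjusted p under 0.05 it gave 3 of 7, against 10.7% of all genes, and DESeq2 called 1 of 7, against 5.67%. The median log2 fold change of the 7 tested genes was -0.20 over bead controls, 0.22 over lysate and -0.53 in bead controls against lysate. Over all genes the medians were -0.12, -0.01 and 0.02. Roquin IP and the bead controls overlapped for 6 of the 7 tested synthesis genes and not for Ptgs2. Over all genes 18.7% did not overlap, so 1 of 7 is near the background.

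**Figure D4:**
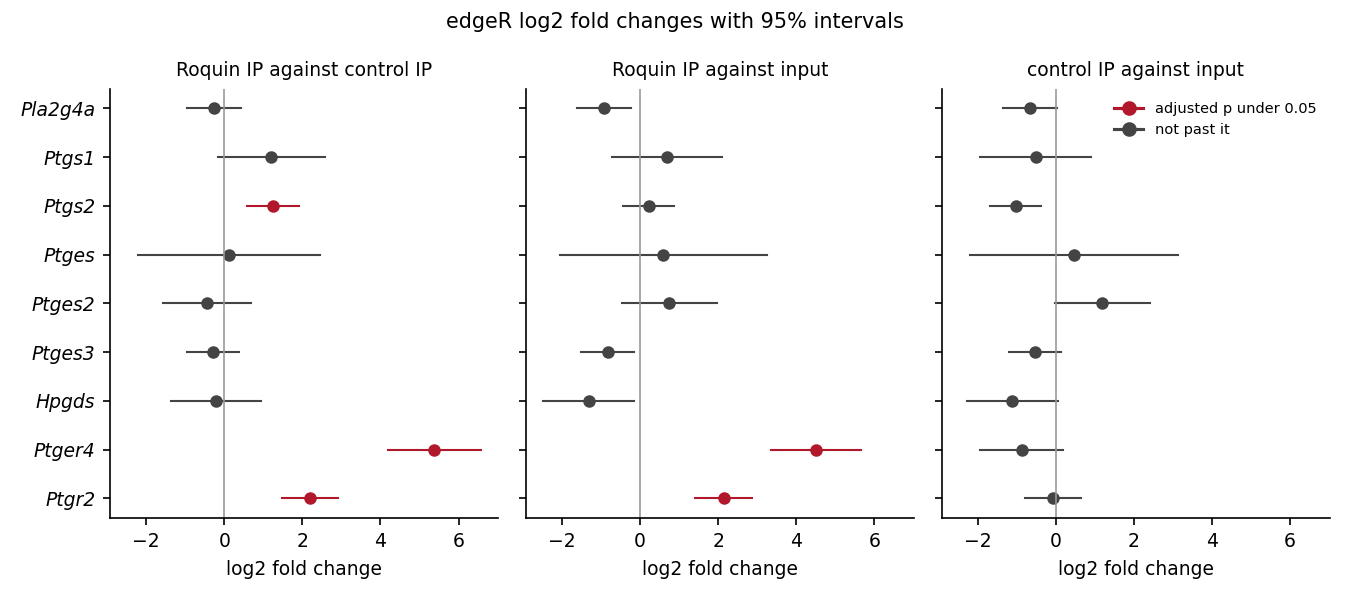
Log2 fold changes (edgeR) with 95% intervals for the 7 tested synthesis genes, Ptger4 and Ptgr2 in the 3 comparisons, with red for an adjusted p under 0.05. Of the synthesis genes, Ptgs2 over bead controls (1.25) is red, while Ptger4 and Ptgr2 are red over both backgrounds.

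Levels of the 8 genes were ordered per kb of the longest coding transcript. In the lysate, Ptges3 came first at 170.7 ± 28.6 CPM per kb (SD, n = 3), then Ptgs2 at 84.6 ± 17.5 and Pla2g4a at 42.9 ± 6.97, and these 3 did not overlap. With the mean length of coding transcripts in place of the longest, Ptgs2 (119.6 to 179.3) and Ptges3 (154.9 to 213.8) did overlap in the lysate, both above Pla2g4a. Hpgds followed at 13.2 ± 8.70, then Ptgs1 at 2.36 ± 2.05, Ptges2 at 1.17 ± 0.630, Ptges at 0.325 ± 0.563 and Tbxas1 at 0.288 ± 0.309, where each overlapped its neighbour. In Roquin IP, Ptgs2 (98.7 ± 34.7) and Ptges3 (95.9 ± 30.4) overlapped at the top, but with the mean length Ptgs2 (140.9 to 256.6) lay above Ptges3 (68.4 to 127.5). With beads alone Ptges3 (118.1 ± 31.1) lay above Ptgs2 (41.6 ± 6.99) in every library. COX2 mRNA exceeded COX1 mRNA per kb in all 9 libraries. A level is a mean over the culture, so fewer expressing cells and less mRNA per cell cannot be told apart.

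Beyond synthesis, 40 further genes of the pathway were listed by role: 31 had reads and 17 were tested. Over the bead controls, 2 were called higher and 0 lower, against 3.76% and 0% of all genes, with a median log2 fold change of -0.08. Over the lysate 2 were higher and 1 lower, against 5.45% and 2.79% of all genes. In bead controls against lysate none of the 17 passed in edgeR. At an unadjusted p under 0.05, 1 of the 17 was higher and 2 were lower there, against 10.8% and 9.53% of all genes. DESeq2 called 1 higher, against 4.23%, and so did edgeR with the pairing, against 6.65%. The calls were Ptger4, Ptgr2 and Acsl4. With same-numbered libraries paired, 3 of the 17 were higher and 3 lower over lysate, against 9.99% and 8.04% of all genes, since Akr1b3, Alox5ap and Lta4h were then called too.

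Among the receptors, which carry prostanoid signals into the cell, 2 of 9 were tested. Ptger4 (EP4), which raises cyclic AMP and restrains cytokine output in macrophages, was at 521.0, 440.3 and 327.5 CPM in Roquin IP. It was at 12.8, 10.8 and 7.74 CPM with beads alone and at 37.1, 5.54 and 13.9 in the lysate. Every Roquin IP library lay far above the other 6. Its log2 fold change was 5.38 over bead controls (SE 0.55, edgeR adjusted p = 1.88e-05) and 4.51 over lysate (SE 0.53, adjusted p = 7.22e-05). The fold over lysate, 22.7, rose to 44.9 without lysate 1.

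Between same-numbered libraries Ptger4 differed from the bead controls by 5.35, 5.35 and 5.40, so the 3 pairs lay closer together than the levels. The authors' deposited table gave a ratio of 41.7 and the class "no CDE". Its longest annotated 3' UTR (1233 bases) holds no TTCNNNGAA and 5 ATTTA. Ptger1, the gene of the receptor EP1, was at 12.6 ± 2.98 CPM in Roquin IP and 12.5 ± 2.21 with beads alone (0.01, adjusted p = 0.998). Ptger3, Ptgdr, Ptgfr and Tbxa2r were listed at 0 in every library.

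Of the transport and breakdown genes, 2 of 5 were tested. Ptgr2, whose enzyme reduces the 15-keto products of prostaglandins, was at 147.6, 71.9 and 119.0 CPM in Roquin IP. It was at 16.8, 27.4 and 28.4 CPM with beads alone and at 22.8, 29.7 and 23.8 in the lysate. Roquin IP did not overlap the bead controls or the lysate, which overlapped each other. Ptgr2 was higher in Roquin IP by 2.21 over bead controls (SE 0.33, edgeR adjusted p = 0.000715) and by 2.14 over lysate (SE 0.34, adjusted p = 0.00109). The deposited class was "no CDE", and its longest 3' UTR holds no TTCNNNGAA. Abcc4, the gene of an efflux pump that exports prostaglandins, did not pass (-0.29 over bead controls, adjusted p = 0.884). Hpgd, the gene of the dehydrogenase that inactivates prostaglandins, had 1 read in all.

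The other arachidonate genes gave 1 call. Acsl4, whose enzyme couples arachidonate to coenzyme A for return to membranes, was at 97.3, 131.2 and 126.8 CPM in Roquin IP and 217.9, 252.3 and 239.0 in the lysate. It was lower in Roquin IP than in the lysate by -0.99 (SE 0.26, edgeR adjusted p = 0.0324). The call ended on leaving out any 1 of these 6 libraries (adjusted p 0.0570 to 0.159). With beads alone Acsl4 was at 194.6, 130.1 and 142.6 CPM, also below the lysate in all libraries (-0.60, edgeR adjusted p = 0.217), as for 10.8% of the genes tested. Roquin IP and the bead controls overlapped (-0.39, adjusted p = 0.695). None of the 5 tested genes of arachidonate release passed. Pla2g5, a secreted phospholipase gene, was higher in all Roquin IP than bead controls, as were 10.7% of the genes tested (112.6 ± 23.1 against 71.3 ± 5.07 CPM, log2 0.66, edgeR adjusted p = 0.637).

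In the lipoxygenase arm, which makes leukotrienes from the same arachidonic acid, 3 of 6 genes were tested and none passed. Alox5ap, the gene of the protein that presents arachidonate to 5-lipoxygenase, was at 44.5 ± 9.63 CPM in Roquin IP, 51.4 ± 11.6 with beads alone and 24.8 ± 7.55 in the lysate. With the pairing it was higher than the lysate both in Roquin IP (0.86, edgeR adjusted p = 0.0196) and on beads alone (1.06, adjusted p = 0.0128). Lta4h, the leukotriene A4 hydrolase gene, was at 11.8 ± 4.17, 14.3 ± 2.62 and 25.9 ± 1.87 CPM in the same order, lower in Roquin IP than in the lysate with the pairing (-1.16, edgeR adjusted p = 0.0249) and in DESeq2 (-1.11, adjusted p = 0.0251). Akr1b3, an aldose reductase gene whose enzyme can make prostaglandin F2alpha, lay at 26.9 ± 2.94, 40.9 ± 5.42 and 51.1 ± 15.9 CPM and did not pass over bead controls (-0.61, adjusted p = 0.541), while over lysate it did with the pairing (-0.91, adjusted p = 0.0269) and in DESeq2 (-0.94, adjusted p = 0.0239).

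The genes whose pattern over the 9 libraries lay nearest to that of Ptgs2 were Rhbdd1, 2010106G01Rik, Sema5a, Suco and Lamp2. Likeness was the root mean square difference of log2 CPM after centring each gene, 0.23 to 0.28 for these 5 against a median of 0.82 over all genes tested. The choice used these same libraries, so fold changes like those of Ptgs2 follow from it. None of the 5 was called over bead controls, with log2 fold changes of 0.72 to 1.37 and edgeR adjusted p from 0.0506 to 0.371. With the pairing Sema5a (1.30, adjusted p = 0.0198) and Suco (1.14, adjusted p = 0.0225) passed. Both also passed in DESeq2 (1.40, adjusted p = 0.0280, and 1.17, adjusted p = 0.00422). In bead controls against lysate the log2 fold changes of the 5 were -0.67 to -1.01, none called. With the pairing 2010106G01Rik (-1.05, edgeR adjusted p = 0.0309) and Suco (-0.98, adjusted p = 0.0387) passed there. DESeq2 called both lower there too (-1.05, adjusted p = 0.0382, and -1.02, adjusted p = 0.0238). In Roquin IP over lysate the log2 fold changes of the 5 were 0.00037 to 0.52, none called. All 5 were classed "no CDE" in the authors' deposited table.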

How the data were processed

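The authors deposited raw read counts per gene for 9 libraries, per the file headers, with a ratio of antibody to bead libraries, a p-value (no label or header says whether it is adjusted) and a text class of CDE prediction. The ratio column is headed log2 but holds no negative value; linear ratios recomputed with size factors matched all 5508 finite values of at least 1 to within 0.5%. The submitters' processing notes name CASAVA 1.8.2, BWA and DESeq 1.8.3. Which counter, build, annotation and strand setting were used was not given in the sources used here, so reads of overlapping genes cannot be told apart.

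Counts were fitted with edgeR 4.0.16 in R 4.3.3 (quasi-likelihood F test, TMM factors, filterByExpr with a minimum count of 10), with all 9 libraries in 1 fit, group as the only term and Benjamini-Hochberg adjustment over 9567 genes. SE is the fold change divided by the root of F. DESeq2 1.42.0 and the other settings were alternatives. The code was tested on simulated data. The replicates are biological per the series' design text, and none were duplicates (chi-square per degree of freedom 13.6 to 128.0). Libraries share numbers in their titles, and deviations of same-numbered libraries from their group means correlated at 0.15 to 0.58 across genes in every pair of groups, so a fit with the number as a block is given where it changes a call.

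A level of 1 CPM stood for 2.02 to 11.6 reads. A count of 0 allows up to 3 reads, for counting error only. Genes named are the 8 members, pathway genes that passed, and up to 4 others per list by mean count. Members and lists were chosen with earlier results of these data known. Older symbols were matched through RefSeq synonyms (GRCm38.p6) for 3 listed genes.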

Additional observations from a re-analysis of the deposited data

How the results depend on the processing

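Ptger4 and Ptgr2 remained called over bead controls and over lysate under all alternatives run. The call of Ptgs2 over bead controls held with RLE factors, DESeq2, no count filter, a minimum count of 50, the 6 libraries compared and the replicate block (1.21), and was lost with library size alone (0.38, 0 members higher). Its value ran from 0.92 to 1.40 on leaving out 1 library (0 or 1 members higher). Over lysate it was -0.57 with library size alone and -0.10 to 0.38 on leaving out 1 library. In bead controls against lysate it passed with the replicate block (-1.02) and in DESeq2 (-1.06), 1 member lower in each. The cause of these changes was not tested. Beside the pairing results given with their genes, the block changed no call of the tested synthesis and pathway genes or of the 5 genes nearest to Ptgs2.

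Members lower in Roquin IP than in lysate numbered 3 with library size alone and with the block, 1 with no filter, with the 6 libraries compared and in DESeq2, and 0 or 1 on leaving out 1 library. With library size alone 2 members were lower than in bead controls, and signs turned, with no call, for Ptges (-0.75 over bead controls, -0.18 over lysate), Ptgs1 (-0.023 over lysate) and Ptgr2 (0.036, bead controls against lysate). Signs also turned, with no call, on leaving out 1 library. Over bead controls these were Ptges (-0.34 to 0.47), Ptges2 (-0.81 to 0.028), Pla2g4a (-0.49 to 0.17) and Hpgds (-0.47 to 0.11). In bead controls against lysate they were Ptgs1 (-1.18 to 0.50), Ptges (-0.10 to 6.30), Ptger4 (-1.32 to 0.11) and Ptgr2 (-0.19 to 0.14).

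Of all genes, those lower than in bead controls (0) numbered 3708 with library size alone, 21 with no filter, 11 with the block, 6 in DESeq2 and 0 to 3 on leaving out 1 library (204 at an unadjusted p under 0.05). Over lysate, genes higher (521) were 259 with library size alone, 956 with the block and 298 to 679 on leaving out 1 library. Genes lower (267) were 2668, 769 with the block, 416 with no filter, 542 in DESeq2 and 30 to 452. For bead controls against lysate, genes higher (78) and lower (29) were 335 and 229 with no filter, 165 and 98 at a minimum count of 50, 2 and 1 with the 6 libraries compared, 636 and 553 with the block, 405 and 401 in DESeq2, and 0 to 185 and 0 to 86 on leaving out 1 library. Library size alone gave 10 lower.

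The share of Ptgs2 in the pathway kept its direction without Ptges3 (1.34 over bead controls) and on leaving out 1 library. With the mean length of coding transcripts, Ptgs2 was at 156.7 CPM per kb in lysate in place of 84.6, and at 182.6 in Roquin IP in place of 98.7, and Tbxas1 stood above Ptges in lysate. The union of annotated 3' UTRs gave as many TTCNNNGAA matches in each of the 8 genes. At the depths of the lysates, the precision for Ptgs1, Ptges and Tbxas1 is limited by 48, 9 and 4 reads.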
